A study of Homo sapiens with 9 samples.

Results

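HCT116 is an established human colon carcinoma line that is widely used as a model of epithelial cancer cells. The state described here is that of its control cells, chosen as the 3 libraries labelled siControl among the 9 libraries of the series. The remaining libraries form the siRNF40 and siTG2 groups, with 3 each, and none of them entered any value below. All cells were labelled WT, were kept in McCoy's 5A medium, and were collected 48 h after small interfering RNA had been delivered with a lipid reagent. The control cells had thus been transfected too, and untransfected HCT116 cells were not analysed here. Polyadenylated RNA was sequenced, which favours messenger RNA and under-represents transcripts without a poly(A) tail. The labels do not say whether the 3 replicates came from separate cultures, so the SD between them may be partly technical.

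Reads assigned to genes numbered 29161285, 34143599 and 31096592 in replicates 1, 2 and 3. Levels are given as TPM (transcripts in 1000000), meaning reads divided by the length of the gene's exons and scaled so that all genes of a library sum to 1000000. Only on this per-length scale are different genes compared. A value is the mean ± SD of 3 libraries (n = 3) unless the libraries are given singly. A gene counts as expressed when it reached 1 TPM in all 3 libraries, a threshold that corresponds to about 10 reads per kilobase of exon, since 1 read per kilobase was worth 0.0941 to 0.111 TPM. A count of 0 in a library still allows up to 0.0879 to 0.103 reads in 1000000 (3 counts of the library total), and this limit covers counting error only. The libraries of a single group allow no comparison of conditions: the smallest two-sided p an exact sign-flip test of 3 libraries can give is 0.25, so levels, ranges and order are described and nothing is tested. The order of 2 genes counts as separated when all libraries of one lie above all libraries of the other.

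A cell's messenger RNA is spread very unevenly over its genes. Genes for protein synthesis, the cytoskeleton and energy metabolism are transcribed in nearly every cell type, while lineage genes are transcribed in the cell types they define. Many proteins are encoded by several paralogs (isoenzymes), and which paralog a cell uses is part of its identity. Tumour lines often keep some genes of the tissue they came from, lose others, and transcribe genes that are normally restricted to the germ line.

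Of 19700 protein-coding genes with an exon length, 11858 (60.2%) were expressed and 3646 (18.5%) had no read in any library. In a single library 12144 to 12208 protein-coding genes reached 1 TPM. Between 10 and 100 TPM lay 7303 genes, the most populated class among the expressed ones. Only 1148 genes lay between 100 and 1000 TPM, and 54 genes were at 1000 TPM or above. Those 54 genes, 0.274% of the protein-coding genes, held 20.5% of all TPM, the MTRNR2L genes described below included. Long noncoding RNA contributed little: long intergenic RNA genes held 0.634% and antisense genes 0.677% of TPM. Of 6521 long intergenic RNA genes 9.03% were expressed.

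The highest entries of the table were not ordinary nuclear genes. All 37 genes of the mitochondrial genome, 13 of them protein-coding, were listed at 0 reads in all 3 libraries. At the same time, 29 nuclear genes and pseudogenes counted as copies of mitochondrial sequence reached 1 TPM. They were so counted by name, or by position within blocks of such copies on chromosomes 1 and 5. All entries so counted, those under 1 TPM included, took 6.70%, 6.93% and 6.16% of the reads of replicates 1, 2 and 3. Their shares of TPM were 32.8%, 32.8% and 31.1%. All 10 genes with the highest mean TPM were such copies. Of the 29, 7 lay on chromosome 1 and 8 on chromosome 5. The highest, MTRNR2L2, was at 73853 ± 1936 TPM, a value that rests on a model of 87 exon bases against a span of 1037 bases in the deposited table (hg19 chromosome 5, 79945819 to 79946855). The level of mitochondrial messenger RNA therefore cannot be read from these values, and the origin of the reads on the copies was not tested. Leaving the copies out of the total multiplies every other TPM by 1.476 in the mean and changes no ratio between genes within a library. The levels below keep the copies in the total.

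Apart from the MTRNR2L genes, the protein-coding genes with the highest levels were EEF1A1, FTL, HMGA1, TMSB10, HSPA5, H1F0 and FTH1, in this order of mean TPM. FTL and HMGA1 were not separated over the libraries, and neither were H1F0 and FTH1. EEF1A1, which brings aminoacyl-tRNA to the ribosome, was at 6620, 6877 and 7053 TPM in the 3 libraries (hg19 chromosome 6, 74225473 to 74233520, minus strand). The ferritin chains FTL and FTH1, which form the cell's iron store, were at 5674 ± 172 and 4036 ± 168 TPM. Of the exon bases of FTH1, 62.4% are shared with another gene model. FTH1 was above FTL when reads were divided by the longest or the median transcript length, or not divided. HMGA1, an architectural protein that binds AT-rich DNA and is known for high levels in many carcinomas, was at 5578, 5536 and 5374 TPM. TMSB10, a small protein that binds monomeric actin, was at 5162 ± 81.4 TPM. The linker histone gene H1F0 was at 4073 ± 57.4 TPM and HSPA5, the chaperone BiP of the endoplasmic reticulum, at 4641 ± 66.2 TPM. The spread over libraries was small against these levels.

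The rest of the 25 highest protein-coding genes mixed housekeeping with signalling genes. GAPDH was at 1967 ± 35.6 TPM, ACTG1 (cytoplasmic gamma-actin) at 1888.5 ± 8.38 TPM and EEF2 (the translocation factor of the ribosome) at 1878 ± 22.9 TPM. AKAP12, a scaffold that anchors protein kinase A, was at 2711 ± 183 TPM. ERRFI1, which encodes an inhibitor of the epidermal growth factor receptor (EGFR) that is induced by growth factor signalling, was at 2334 ± 127 TPM. EREG, a secreted EGFR ligand, reached 2419.8 ± 143 TPM and ranked at place 14 among protein-coding genes. EZR (ezrin, which links actin to the plasma membrane) was at 2155 ± 37.8 TPM. AKAP12, EREG and ERRFI1 shared an order of libraries, with replicate 3 highest and replicate 2 lowest. This order was not particular to them, since SLC2A1, MYH9 and DSG2, described below, had it too.

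**Figure D1:**
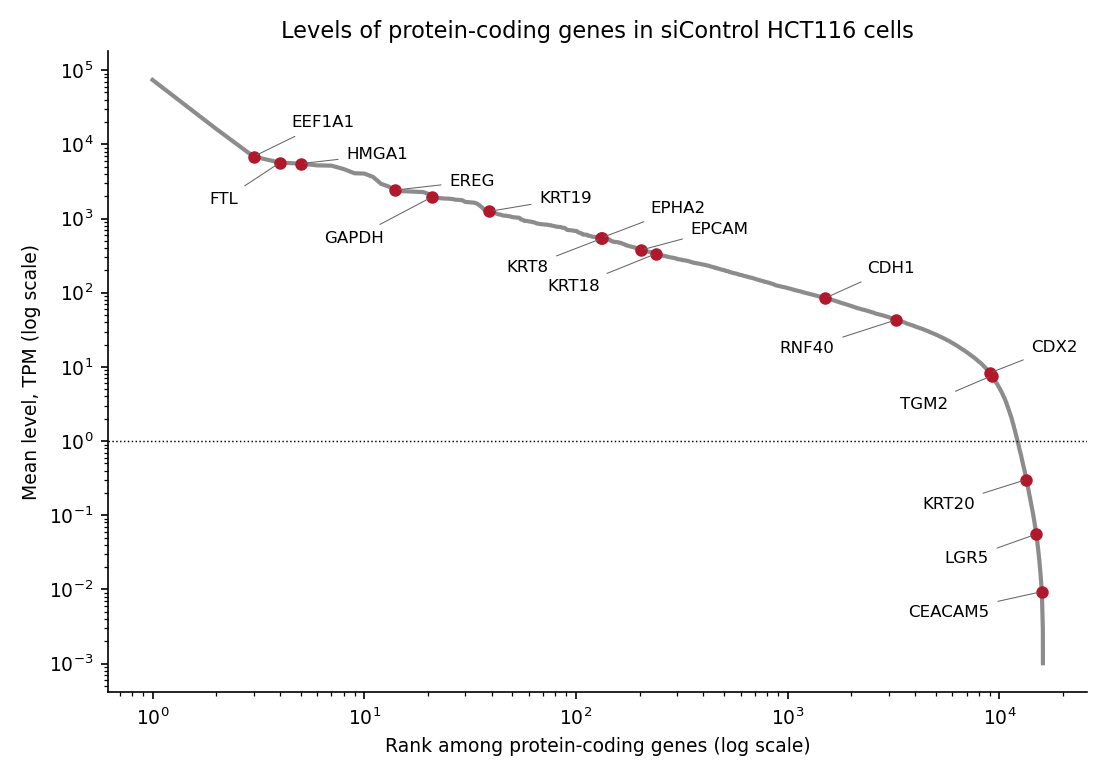
Mean level in TPM (y axis, log scale) of every protein-coding gene with a read against its rank (x axis, log scale) in the 3 siControl libraries, with named genes as red points and the dotted line at 1 TPM. The curve falls steadily to about 10 TPM and then drops steeply; EEF1A1 stands at rank 3, behind MTRNR2L2 and MTRNR2L12, EPCAM at rank 202, CDH1 at rank 1506 and KRT20 at rank 13400.

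The 100 highest genes of each library held 45.7 ± 0.917% of TPM, and 21.8 ± 0.313% once the copies of mitochondrial sequence were left out. Without the copies, 840 to 885 genes together made up 50% of TPM. Cytosolic ribosomal protein genes held 5.67 ± 0.131% of TPM (8.37% without the copies). Of 87 such genes 82 were expressed, with a median of 361 TPM over all 87. The highest were RPS2 at 3641 ± 73.8 TPM, RPL8 at 2937 ± 99.0 TPM and RPS12 at 2324 ± 99.1 TPM. Ribosomal protein paralogs with tissue-restricted use differed among themselves: RPL39L had no read beside RPL39 at 135 ± 6.14 TPM, and RPL3L was at 0.284 TPM beside RPL3 at 1509 ± 26.4 TPM, whereas RPL22L1 was at 231 ± 6.95 TPM beside RPL22 at 245 ± 2.11 TPM. Other parts of the translation apparatus were nearly complete: 33 of 34 aminoacyl-tRNA synthetase genes and 52 of 56 translation initiation factor genes were expressed.

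Transcripts of the translation apparatus are known to begin with a C followed by a run of pyrimidines, the 5′ terminal oligopyrimidine tract, through which cells adjust their translation to nutrients. Of 68 expressed ribosomal protein genes with a RefSeq promoter, 44 (64.7%) had a C at the annotated start followed by at least 4 pyrimidines on the gene's strand. The share was 4.69% of all 15016 promoters examined and 8.64% of 937 genes at 100 TPM or more outside the ribosomal proteins. The annotated start of RefSeq was used; starts in HCT116 were not measured. The windows below, of 30 bases with 15 before the start, show genes with and without this feature among the highest expressed. Capitals mark the run of C and T from the start. They are from GRCh38.p14 (RefSeq) and were chosen after the levels were known.
RPLP0 (chr12:120201097-120201126, minus strand): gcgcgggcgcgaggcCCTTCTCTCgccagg
RPL13A (chr19:49487593-49487622, plus strand): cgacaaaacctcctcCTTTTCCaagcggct
RPS12 (chr6:132814554-132814583, plus strand): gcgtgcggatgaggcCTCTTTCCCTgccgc
RPS18 (chr6:33272060-33272089, plus strand): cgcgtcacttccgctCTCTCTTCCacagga
EEF1A1 (chr6:73521018-73521047, minus strand): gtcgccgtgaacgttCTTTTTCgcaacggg
EEF2 (chr19:3985449-3985478, minus strand): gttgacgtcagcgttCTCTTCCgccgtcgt
GAPDH (chr12:6535249-6535278, plus strand): agcgggtgcatccctgtccggatgctgcgc
TMSB10 (chr2:84905641-84905670, plus strand): gggcgccgctcttttgtttcttgctgcagc
RPLP0 (2283 ± 54.5 TPM), RPL13A (2304 ± 66.9 TPM), RPS12, RPS18 (1853 ± 37.2 TPM), EEF1A1 and EEF2 open with a run of 7 to 10 pyrimidines. GAPDH and TMSB10, at levels as high, have no such run at the annotated start.

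The libraries carried the epithelial markers of the label. EPCAM, an adhesion molecule of epithelia, was at 375, 373 and 376 TPM. KRT8, the type II keratin of simple epithelia, was at 527, 563 and 535 TPM, and its partner KRT18 at 332, 351 and 325 TPM. CDH1 (E-cadherin, the adhesion molecule of adherens junctions) was at 86.4, 81.7 and 86.7 TPM. All 4 genes lay far above the threshold in every library, and their order, KRT8 first and CDH1 last, was the same in each. Of the 13 colonic epithelial markers listed, 9 were expressed and none was without a read. KRT19, a further keratin of simple epithelia, was the highest of them at 1249 ± 40.5 TPM. The tight junction genes CLDN7, CLDN4 and CLDN3 stood at 296 ± 4.15, 118 ± 4.05 and 26.4 ± 3.07 TPM.

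Few markers of the mature intestine were expressed. CDX2, a transcription factor that specifies intestinal epithelium, was expressed at 8.32, 7.90 and 8.62 TPM. Its relative CDX1 had 1 read in 3 libraries, as did VIL1 (villin of the brush border) and CEACAM5 (carcinoembryonic antigen). KRT20, the keratin of mature colonocytes, was at 0.0604, 0.153 and 0.698 TPM, so that 16 reads in all supported it. Of 14 absorptive colonocyte genes 1 was expressed, CA2 (carbonic anhydrase) at 28.0 ± 1.35 TPM, and 8 had no read, among them GUCA2A, GUCA2B (guanylin peptides), FABP1 (fatty acid binding), SI (sucrase-isomaltase) and MS4A12. Of 10 goblet cell genes only FCGBP was expressed, at 2.81 ± 0.602 TPM, while the mucus genes CLCA1, ZG16, TFF3 and AGR2 and the secretory regulator ATOH1 had no read. Of 5 Paneth cell genes none was expressed, and of 10 enteroendocrine genes PYY (2.04 ± 0.695 TPM) and TPH1 (1.67 ± 0.429 TPM), the enzyme of serotonin synthesis, passed the threshold. No mucin gene reached 4 TPM on this scale, the highest being MUC3A at 3.78 ± 0.308 TPM and MUC20 at 3.49 ± 0.313 TPM, which were not separated. MUC20 was first with longest and MUC6 with median transcripts.

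Intestinal stem cell genes fell on both sides. CD44, a hyaluronan receptor, was at 169 ± 2.93 TPM, and BMI1, a Polycomb component, at 48.0 ± 1.70 TPM. RNF43, a ligase that removes Wnt receptors, was at 28.996 ± 1.29 TPM, MSI1 (an RNA-binding protein) at 14.3 ± 0.0192 TPM and PROM1 (CD133) at 8.23 ± 0.123 TPM. LGR5, the receptor that marks crypt base stem cells, had 9 reads in all, and the crypt base genes ASCL2 and OLFM4 had none. In all, 6 of 10 stem cell genes were expressed.

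**Figure D2:**
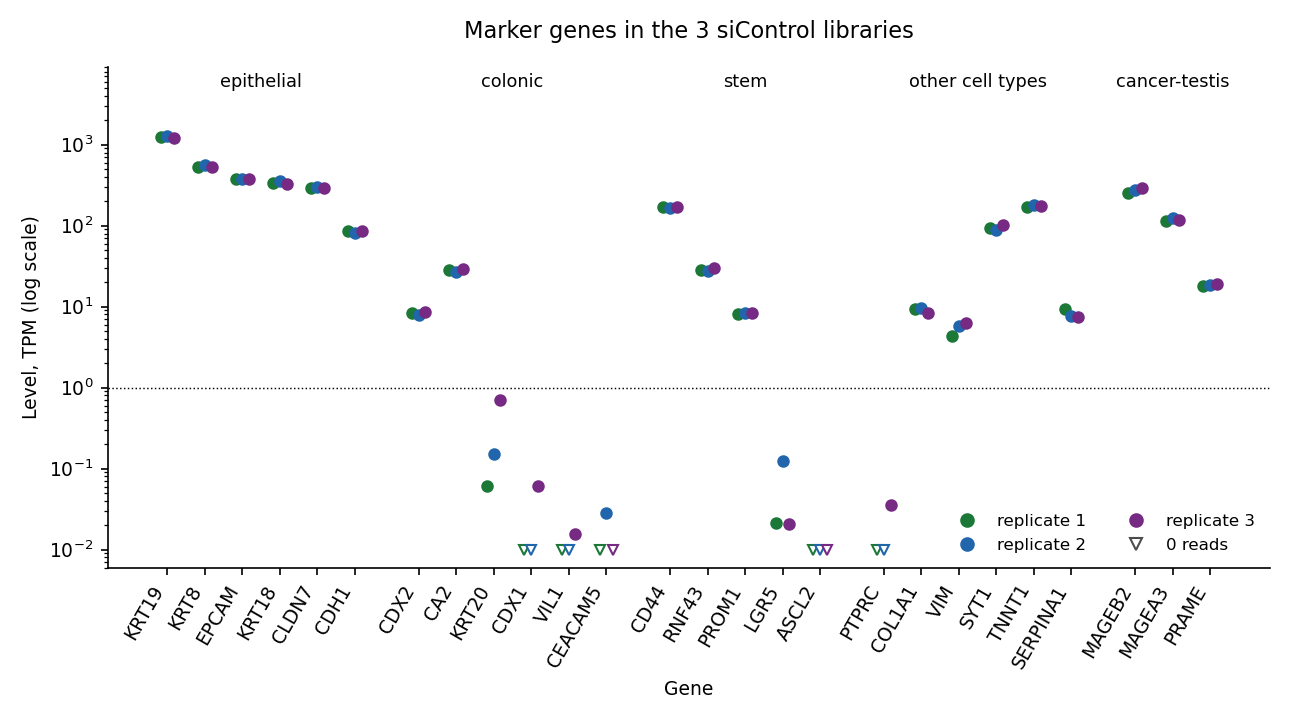
Level in TPM (y axis, log scale) of marker genes (x axis) in each siControl library, 1 point per library; open triangles at the bottom of the axis mark libraries with 0 reads, and the dotted line is 1 TPM. Epithelial keratins, EPCAM and CDH1 lie between 81.7 and 1288 TPM, 4 of the 6 colonic genes plotted lie below 1 TPM, and SYT1, TNNT1, MAGEB2 and MAGEA3 lie above 80 TPM in every library.

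Markers of other cell types were near 0, with a few strong exceptions. Of 12 leukocyte genes none was expressed, their summed level was 1.58 to 2.06 TPM per library, CD3E, CD3D and TYROBP had no read and PTPRC (CD45) had 3. Of 10 fibroblast genes only COL1A1 was expressed, at 9.16 ± 0.687 TPM, and 7 had no read, among them COL1A2, DCN, LUM and PDGFRA. The endothelial list held ESAM at 8.15 ± 0.589 TPM and none of the other 6 measured genes was expressed. VIM (vimentin, the intermediate filament of mesenchymal cells) was at 5.46 ± 1.03 TPM, and CDH2 (N-cadherin) had 1 read.

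The exceptions were single genes of muscle and nerve. TNNT1, the troponin T of slow skeletal muscle, was at 169.5, 182 and 174 TPM, while MYH1, MYH2, MYH7, TNNT3, MYOD1 and MYOG, further muscle genes, had no read in any library. SYT1, the calcium sensor of synaptic vesicles, was at 93.7, 87.6 and 103.3 TPM and MAP2, a microtubule protein of dendrites, at 17.9 ± 1.30 TPM. STMN2 and ELAVL4, which mark neurons, had no read, and SNAP25, the partner of synaptotagmin in vesicle release, was at 0.163 TPM. Thus 2 of 11 muscle genes and 3 of 9 measured neuronal genes passed the threshold, the third neuronal gene being TUBB3 at 8.25 ± 0.706 TPM. Of 10 hepatocyte genes SERPINA1 (alpha-1-antitrypsin) was expressed, at 8.19 ± 0.960 TPM, and of 7 pluripotency genes LIN28A was, at 3.74 ± 0.226 TPM.

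The cancer-testis antigens are genes normally restricted to the testis and silent in other adult tissues, and 3 of the 25 measured were expressed. MAGEB2 was at 251, 272 and 288 TPM and MAGEA3 at 113, 124 and 117 TPM, both from the X chromosome, and PRAME was at 18.3 ± 0.545 TPM. Of the others, 15 had no read, among them MAGEA1, MAGEA4, MAGEA10, GAGE1, CTAG1B, SSX2 and SYCP1. Having no read does not show silence for members with near-identical copies, since reads that match several genes can be lost in counting. MAGEA3 has near-identical neighbours: MAGEA6 was at 0.132 TPM and MAGEA12 at 0.147 TPM, and the counting could split reads among them, so the distribution within this group is uncertain. Among all 31 genes with MAGE names 9 were expressed, with MAGEB2, MAGEA3 and MAGEF1 the highest. This class was set by name, not by restriction to the testis.

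EREG was the highest of the growth factor genes listed, followed by GDF15 and then by FGF19 and the further EGFR ligand AREG, which were not separated. EREG (epiregulin) was at 2408, 2283 and 2569 TPM, AREG (amphiregulin) at 264, 232 and 279 TPM, TGFA at 123 ± 8.19 TPM, HBEGF at 61.4 ± 4.001 TPM and BTC (betacellulin) at 23.01 ± 0.509 TPM, whereas EGF itself was at 0.522 ± 0.200 TPM. EGFR, their receptor, was at 81.2 ± 7.58 TPM, ERBB2 at 22.9 ± 1.26 TPM and ERBB3 at 14.9 ± 0.693 TPM. Of 42 secreted ligand genes 30 were expressed and VEGFC, BMP2 and PTN had no read. GDF15, a stress-induced factor of the TGF-beta superfamily, was at 1217 ± 56.3 TPM, FGF19, a bile-acid-induced hormone of the ileum, at 274 ± 10.4 TPM and MDK (midkine) at 225 ± 14.8 TPM. DKK1, a secreted Wnt inhibitor, was at 111 ± 4.30 TPM. FGFR4, known as the main receptor of FGF19, was the highest FGF receptor gene with exon unions, at 33.8 ± 1.30 TPM, and with longest transcripts, while FGFR1 was first with median transcripts and in reads.

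Of 34 measured cytokine and chemokine genes 15 were expressed and 12 had no read, among them IL6, TNF, CXCL10 and CCL2. LIF, which signals through gp130, was the highest at 184 ± 4.69 TPM, followed by IL18 at 90.8 ± 2.94 TPM and CXCL16 at 56.9 ± 0.954 TPM. IL8 and CXCL1, neutrophil attractants, were at 15.9 ± 0.972 and 14.3 ± 2.65 TPM. Among surface proteins, 27 of 30 measured antigens were expressed. The amino acid carrier SLC7A5 and its partner chain SLC3A2 led at 1103 ± 8.90 and 587 ± 33.8 TPM, followed by ITGB1 (581 ± 29.4 TPM) and NT5E (CD73, 496 ± 28.2 TPM). GUCY2C, the guanylin receptor of the intestine, had no read, and GPA33 was at 0.247 TPM.

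All 24 measured colorectal cancer driver genes were expressed. SOX9, a crypt transcription factor, was the highest at 198, 176 and 194 TPM, followed by NRAS at 146 ± 3.26 TPM and CTNNB1 (beta-catenin) at 96.5 ± 4.99 TPM. APC, which limits beta-catenin, was at 13.04 ± 1.35 TPM and BRAF at 11.6 ± 1.34 TPM. The DNA repair genes PMS2 and PMS1 were at 33.5 ± 3.08 and 36.7 ± 0.982 TPM, and MSH6 was at 18.7 ± 1.47 TPM.

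A list of 34 genes whose promoters are often methylated in colorectal cancer was expressed in part. Expressed were 15, among them DKK1, SEPT9 (92.6 ± 2.72 TPM), HLTF (75.03 ± 5.13 TPM), RASSF1 (32.3 ± 2.19 TPM) and CDKN2A (28.8 ± 1.09 TPM). No read was found for 7, namely WIF1, BMP3, IKZF1, NEUROG1, CHFR, GATA5 and TMEFF2. Among all protein-coding genes 60.2% were expressed and 18.5% had no read, so genes without a read are not particular to this list. Secreted Wnt antagonists of this list differed: DKK1 was at 111 ± 4.30 TPM, whereas SFRP1, SFRP2, SFRP4 and SFRP5 had 9, 1, 6 and 22 reads in all, DKK3 had 18 and WIF1 none. MGMT, which repairs alkylated guanine, was expressed at 8.24 ± 1.27 TPM. Methylation was not measured in these libraries.

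Paralog use was followed in 132 families. Of the 130 families with a summed mean of at least 5 TPM, 88 had a leading member with more than 50% of the family total and 27 a leader with more than 90%. In 125 of 130 the leader was separated from the second member over the 3 libraries. The choice of gene length matters more here than the libraries do: the same gene led with exon unions, longest transcripts, median transcripts and undivided reads in 85 of 130 families, and in 63 of these it held over 50% on all 4 scales.

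In 10 of 12 families grouped under glycolysis, carriers and pyruvate dehydrogenase kinases included, 1 gene held more than 50% of the total with exon unions. Of these leaders, PFKFB3 fell from 60.5 to 27.0% with median transcripts. SLC16A1 fell from 51.0% to between 33.2 and 41.1% on the other 3 scales. PKM held 99.99% of the pyruvate kinase total (563 ± 2.14 TPM, with 4 reads of PKLR, the liver form), PGK1 99.99% of phosphoglycerate kinase (176 ± 3.59 TPM), ENO1 97.1% of enolase (1067 ± 18.02 TPM) and ALDOA 94.2% of aldolase (272 ± 9.85 TPM). The testis forms PGK2 and LDHC had 1 read each, and the muscle form PGAM2 had none beside PGAM1 at 115 ± 3.71 TPM. PFKP, the platelet-type phosphofructokinase, held 72.7% of its family at 172 ± 3.77 TPM, ahead of PFKM (37.3 ± 1.45 TPM) and PFKL (27.2 ± 1.02 TPM). In lactate dehydrogenase the heart-type LDHB stood above the muscle-type LDHA in each library, at 582, 617 and 624 TPM against 254, 258 and 256 TPM, and held 53.3 to 70.3% of the family over the 4 scales. Hexokinase had no separated leader, with HK2 at 40.3, 37.9 and 42.0 TPM and HK1 at 38.2, 36.3 and 36.9 TPM, and HK1 was first with longest and with median transcripts. SLC2A1 (GLUT1) led the glucose transporters at 203 ± 4.95 TPM, 77.6% of the total, with SLC2A3 at 35.2 ± 0.460 TPM. The lactate carriers SLC16A1 and SLC16A3 were at 161 ± 8.83 and 143 ± 1.996 TPM, in an order that reversed on the other 3 scales.

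In other metabolic families the leaders named here were first on all 4 scales. MAT2A (225 ± 10.5 TPM) held 99.5% over the liver form MAT1A, CKB, the brain-type creatine kinase, 95.7% at 165 ± 9.19 TPM, and GLUD1 99.6% at 252 ± 4.14 TPM. The mitochondrial folate enzymes MTHFD2 and SHMT2, at 483 ± 17.8 and 159 ± 1.94 TPM, stood above the cytosolic MTHFD1 (41.1 ± 1.92 TPM) and SHMT1 (15.1 ± 1.18 TPM). GSTP1 led the glutathione S-transferases at 423 ± 13.5 TPM and GSTM3 had no read. ALDH1A3 (119 ± 8.55 TPM) led the aldehyde dehydrogenases, and ALDH1A1, used as a stem cell marker, had no read. AKR1B1 held 94.1% of its family at 37.6 ± 0.887 TPM, while AKR1B10 was at 1.29 TPM and AKR1C1 at 0.399 TPM. Among metal-binding metallothioneins MT2A (1254 ± 25.3 TPM) and MT1E (681 ± 18.7 TPM) were high, MT1X was at 28.1 ± 0.182 TPM, and MT1G, MT1B, MT3 and MT4 had no read.

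**Figure D3:**
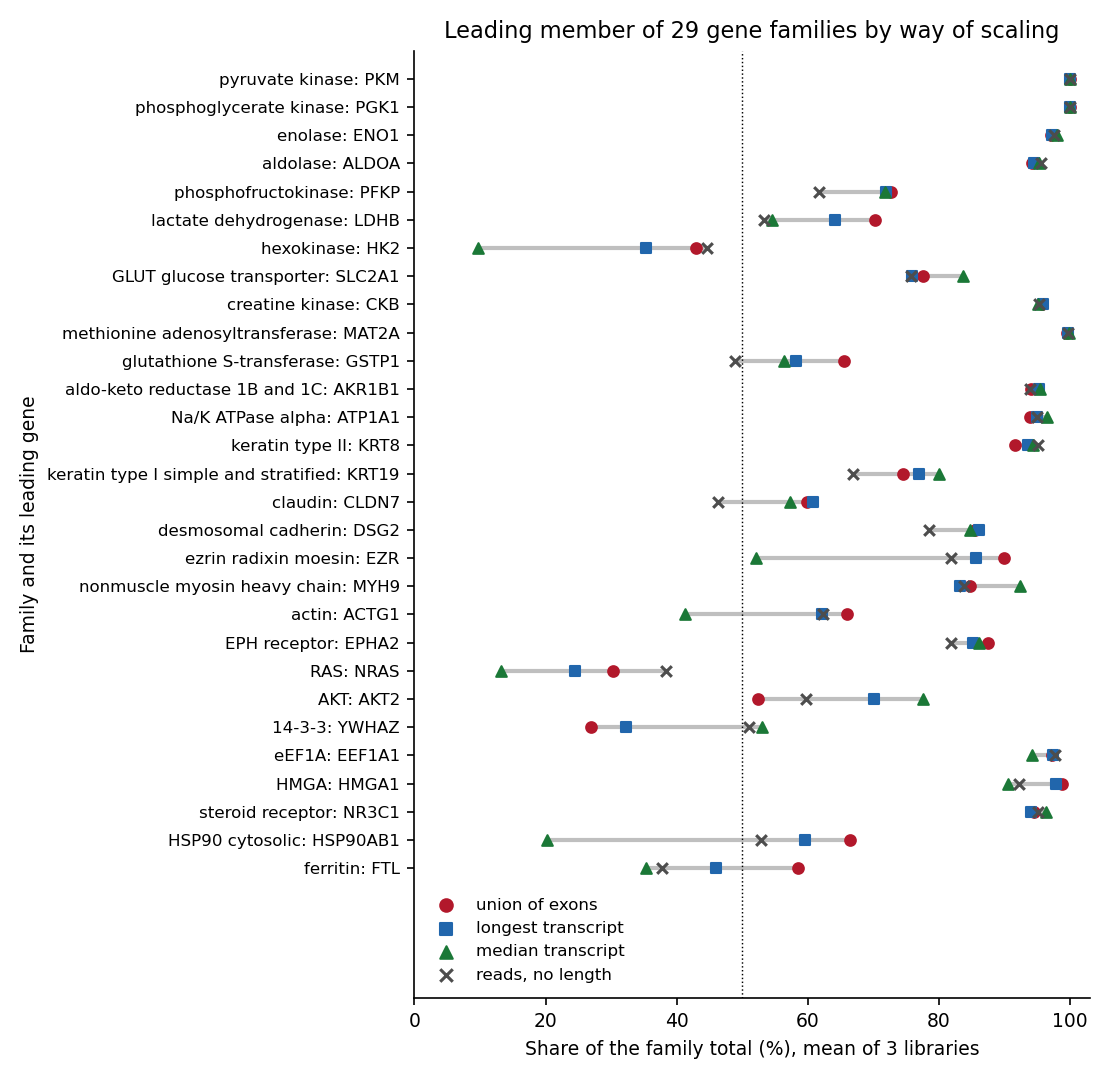
Share of the family total (x axis, percent, mean of 3 libraries) held by the leading gene of 29 families (y axis) when reads are divided by the exon union, the longest transcript, the median transcript, or not divided. PKM, PGK1, ENO1, ALDOA, CKB, MAT2A and EEF1A1 stay above 90% on every scale, LDHB runs from 53.3 to 70.3%, and HK2, NRAS, HSP90AB1 and FTL move widely.

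Cytoskeletal and junction families had leaders of mixed strength. EZR held 89.9% of the ezrin, radixin and moesin total (52.0% with median transcripts). KRT8 held 91.6% of the type II keratins and KRT19 74.5% of the type I keratins; KRT17 had no read. ACTG1 was above ACTB (971 ± 20.03 TPM), except with median transcripts, and the smooth muscle and cardiac actins ACTG2 and ACTC1 had no read. ACTN4 was at 312 ± 5.22 TPM against 58.9 ± 1.26 TPM for ACTN1, and MYH9 at 249 ± 7.73 TPM against 23.7 ± 0.763 for MYH14 and 20.9 ± 0.661 for MYH10. DSG2 held 85.5% of the desmosomal cadherins at 232 ± 7.204 TPM, with the epidermal DSG1 and DSG3 under 0.05 TPM. CDH1 and CDH3 (P-cadherin) were close, at 84.9 ± 2.79 and 78.5 ± 1.45 TPM, with CDH3 first on median transcripts. CTNNA1 (alpha-catenin) was at 295 ± 5.58 TPM and CTNNA2 had no read. LAMB3, a laminin chain of the epithelial basement membrane, was at 375 ± 10.0 TPM, while LAMA3, another laminin chain, was at 6.65 ± 0.384 TPM. With median transcripts LAMA5 was the first laminin gene and LAMB3 held 8.12% of the total.

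Of 18 calcium-binding S100 genes 11 were expressed, and S100A6 held 40.4% of their total. S100A6 was at 1676 ± 77.2 TPM, S100A11 at 913 ± 20.8 TPM, S100A16 at 565 ± 19.1 TPM and S100A14 at 427 ± 1.20 TPM, while S100A8, S100A9 and S100A12, the phagocyte members, and S100B had no read. LGALS1 held 87.6% of the galectins at 1795 ± 89.3 TPM and LGALS3 followed at 236 ± 7.395 TPM, whereas LGALS4, a galectin of the intestinal epithelium, had 1 read. Of 10 measured annexins 9 were expressed. ANXA1 and ANXA2 were not separated, at 548 ± 11.01 and 545 ± 13.4 TPM, and ANXA2 was first on the other 3 scales.

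Receptor and kinase families were led as follows. EPHA2 held 87.4% of the EPH receptors at 545 ± 10.4 TPM, ahead of EPHB4 at 42.5 ± 2.08 TPM, and EPHB2 and EPHB3, targets of Wnt signalling in the crypt, were at 6.70 ± 0.261 and 5.34 ± 0.304 TPM. FZD6 held 65.6% of the frizzled receptors at 119 ± 5.82 TPM. TCF7L2 was the main T-cell factor at 50.4 ± 1.54 TPM, and LEF1 had 1 read. JAK1 (117 ± 2.55 TPM) led its family on all scales. RHOA (766 ± 18.6 TPM), RAC1 (366 ± 8.70 TPM) and CDC42 (266 ± 5.59 TPM) were the high members among small GTPases that steer the actin skeleton. In RAS, NRAS and RRAS (132 ± 11.1 TPM) were not separated, and HRAS (64.4 ± 5.71 TPM) and RRAS2 (63.1 ± 2.23 TPM) overlapped. NRAS was not first with median or with longest transcripts. AKT2 and AKT1, at 25.4 ± 1.09 and 22.9 ± 1.52 TPM, were both expressed. PIK3CG, the leukocyte PI3K subunit, had no read. SFN, the epithelial sigma member of its family of phosphoprotein binders, was at 608 ± 14.8 TPM within a family led by YWHAZ at 924 ± 31.1 TPM.

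In the nucleus, HMGA1 held 98.7% over HMGA2 (70.7 ± 1.96 TPM). HDAC1 was at 226 ± 9.38 TPM against 40.5 ± 0.776 TPM for HDAC2, and SMARCA4 at 18.8 ± 0.661 TPM against 3.16 ± 0.324 TPM for SMARCA2. Both led on every scale, but their leads depended on the length used. With median transcripts the share of HDAC1 fell from 74.1 to 46.6% and that of SMARCA4 from 85.7 to 50.7%. SOX9 held 63.6% of the SOX family (45.5% with median transcripts), with SOX12 at 59.5 ± 2.47 TPM and SOX4 at 27.3 ± 0.725 TPM. SOX17, SOX11, SOX1, SOX3, SOX5 and SOX14 had no read. ETV5 (144 ± 3.11 TPM) led the ETS factors, and FLI1 and SPI1, factors of blood and endothelium, had no read. Of the steroid receptors NR3C1 (glucocorticoid) was at 24.1 ± 1.51 TPM, ESR1 at 0.154 TPM, and PGR had no read. GATA2 and GATA6 were at 8.78 ± 0.857 and 5.64 ± 0.215 TPM, and GATA5 had no read. IGF2BP2, an RNA-binding protein, was at 166 ± 7.26 TPM against 28.1 ± 2.59 TPM for IGF2BP3.

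Chaperones were led by HSPA5, which held 80.9% of the HSP70 family, with HSPA9 of the mitochondrion at 530 ± 14.5 TPM and HSPA8 at 292 ± 8.43 TPM; HSPA9 was first with median transcripts. The stress-inducible HSPA6 had no read, and HSPA1A and HSPA1B, near-identical genes whose reads can be split, were at 1.58 and 26.4 TPM. HSP90AB1 was at 1767 ± 42.3 TPM and HSP90AA1 at 892 ± 24.4 TPM, an order that reversed with median transcripts. HSPB1 held 98.0% of the small heat shock family at 248 ± 14.7 TPM. In translation, EEF1A1 held 97.2% over EEF1A2, the form of muscle and neurons, which was nevertheless at 200 ± 7.66 TPM. EIF4A1 was at 3.89 ± 0.570 TPM against 292 ± 10.9 TPM for EIF4A2, but 48.6% of its exon bases are shared with another gene model in GENCODE 29, and reads on shared bases can be lost in counting.

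HOX genes, which are transcribed in blocks along the body axis, were used in a pattern that differed among the 4 clusters. Of 39 HOX genes 25 were expressed and 3 had no read. HOXB9 was the highest at 150, 156 and 151 TPM, and HOXB4 to HOXB8 lay between 13.6 and 61.2 TPM. In the HOXA cluster HOXA9 stood at 47.2, 49.9 and 52.7 TPM, and HOXA5, HOXA11, HOXA10 and HOXA7, between 6.90 and 9.22 TPM, were not separated as neighbours in order. In the HOXC cluster HOXC9 was first at 16.8, 16.6 and 16.8 TPM. In the HOXD cluster HOXD8 was at 18.7 ± 0.801 TPM, HOXD3 at 2.10 ± 0.763 TPM, and HOXD9 to HOXD13 together had few reads, each under 0.11 TPM. The paralog at position 9 thus led 3 of the 4 clusters per length; with median transcripts HOXB7 led the HOXB cluster.

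**Figure D4:**
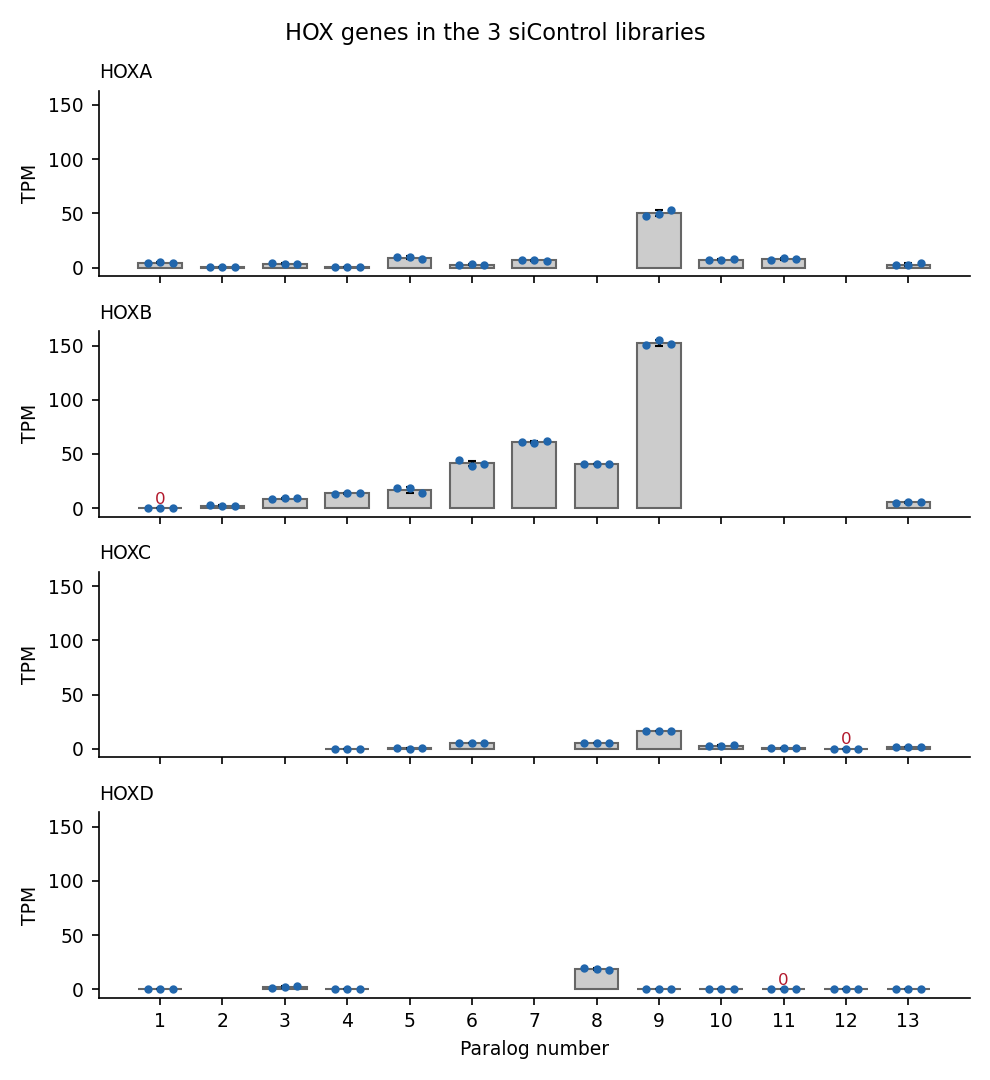
Level in TPM (y axis, from 0, same range in all panels) of the HOX genes of each cluster by paralog number (x axis); bars are means, error bars the SD and points the 3 siControl libraries, and a red 0 marks a gene with no read. HOXB9 at 152 TPM is the tallest bar, HOXA9 and HOXC9 are the tallest of their clusters, and HOXD8 stands alone in its cluster.

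Genes of drug action and immortality were measured as follows. TOP1, the target of irinotecan, was at 836 ± 24.3 TPM, NQO1, a quinone reductase, at 604 ± 4.81 TPM, and UPP1, a uridine phosphorylase, at 488 ± 14.4 TPM. TYMS, the target of fluorouracil, was at 66.5 ± 3.25 TPM with 46.6% of its exon bases shared with another gene model, and DPYD, which degrades fluorouracil, at 1.33 ± 0.213 TPM. The efflux pumps ABCC3 and ABCC1 were at 57.4 ± 1.24 and 54.3 ± 3.08 TPM, above ABCB1 (6.02 ± 0.310 TPM) and ABCG2 (2.71 ± 0.525 TPM). Among all 54 cytochrome P450 genes, of which 16 were expressed, CYP4F11, CYP2R1 and CYP24A1, which degrades vitamin D, were the highest, at 35.0 ± 4.396, 33.3 ± 0.573 and 27.5 ± 3.23 TPM, and the first and second were not separated. TERT, the catalytic subunit of telomerase, was at 1.04, 1.17 and 0.840 TPM, so replicate 3 lay below the threshold, and its partner DKC1 was at 141 ± 3.19 TPM. Long noncoding genes were ranked among long intergenic, antisense, processed-transcript, sense intronic and sense overlapping entries, without small RNA genes and pseudogenes. The highest were GAS5 (659 ± 27.5 TPM), a host gene of small nucleolar RNAs, FAM211A-AS1 (619 ± 3.52 TPM), ZFAS1 (498 ± 6.77 TPM), LINC00657 (391 ± 21.6 TPM) and MALAT1 (336 ± 8.79 TPM). FAM211A-AS1 and ZFAS1 are named as antisense genes, and without a stated strand setting their reads cannot be told apart from those of their partners.

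The targets of the other groups were transcribed in control cells. RNF40, a subunit of the ligase of histone H2B, was at 46.5, 42.3 and 40.9 TPM, at rank 3262 among protein-coding genes. TGM2, which encodes transglutaminase 2, was at 7.01, 8.66 and 7.16 TPM, at rank 9212.

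Gene classes defined by name differed widely in the share expressed. Of 381 olfactory receptor genes 6 (1.57%) were expressed and 344 (90.3%) had no read. Of 92 keratin-associated protein genes of the hair 1 was expressed, KRTAP2-3 at 6.18 ± 3.45 TPM. No gene was expressed among 38 beta defensins, 35 of which had no read, or among 16 genes with PRAMEF names, none of which had a read. Of 27 taste receptor genes 5 were expressed and 12 had no read. Of 17 type I interferon genes IFNE, an interferon of epithelia, was expressed at 4.08 ± 1.53 TPM. Of 51 protocadherin genes of the clusters 2 were expressed. Potassium channel genes (24 of 95) and keratins (14 of 56) were in between. Solute carriers (223 of 372, 59.9%) were expressed about as often as protein-coding genes at large, and ZNF genes (349 of 509, 68.6%) more often than these 60.2%. Nearly complete were the mitochondrial ribosomal proteins (73 of 77) and the proteasome (46 of 51).

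Most of the expressed olfactory receptors lay in 1 place. Of the 6 expressed, 5 lay within the gene model of HBE1, the embryonic beta-like globin, whose long model spans hg19 chromosome 11, 5289582 to 5526847. OR51B4 was at 56.7, 44.1 and 49.1 TPM, OR51B2 at 23.4, 20.1 and 27.7 TPM, OR51B6 at 4.54 ± 0.434 TPM, OR52D1 at 3.20 ± 0.357 TPM and OR51I1 at 2.28 ± 0.888 TPM. All 9 olfactory receptor genes with a length inside that model had at least 0.5 TPM, against 10 of 381 in the whole genome with these 9 included. HBE1 was at 168, 197 and 179 TPM, with 90.01% of its exon bases shared with another model in GENCODE 29. The globin HBG2, whose model of 5274420 to 5667019 encloses that of HBE1 and has 57.31% of its exon bases shared, was at 2.998 ± 0.451 TPM. Reads on shared bases can be lost in counting, for both genes. HBB had 2 reads, and HBD and HBG1 had none. Genes of this region were chosen after their values were seen. HBE1, HBG2, OR51B4, OR51B2 and OR51I1 lie on the minus strand, and OR51B6 and OR52D1 on the plus strand. Whether the receptor genes are transcribed on their own or as part of the long HBE1 or HBG2 model was not tested.

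The share of protein-coding genes expressed was taken for each autosome and the X chromosome, with Y left out. It was lowest on the X chromosome at 48.1% (378 of 786) and on chromosome 21 at 48.2% (108 of 224). The highest shares were 65.9% on chromosome 16 and 67.6% on chromosome 22 (300 of 444). Chromosome 11, which carries many olfactory receptor genes, had 53.9%, and the other autosomes lay between 57.4 and 64.5%. Genes without reads also differed in their models: 11.7% of them share at least 50% of their exon bases with another gene, against 1.99% of expressed genes. Reads on bases shared by 2 genes are not assigned by many counters, so a gene such as UGT1A1, with 61.7% shared bases and no read, is listed at 0 and cannot be taken as silent.

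Promoter composition differed between expressed and unread genes. CpG dinucleotides are depleted from most of the human genome and kept in CpG islands, which are known to overlap the promoters of most housekeeping genes. A RefSeq promoter of 300 bases, 250 before the annotated start and 50 from it, was found for 15016 of 18073 protein-coding genes that RefSeq lists outside chromosome 8 (83.1%). The CpG ratio is the number of CpG times the length, divided by the product of the numbers of C and G, and promoters at 0.6 or above are termed CpG-rich. CpG-rich were 29.2% of the promoters of genes without a read (n = 2371), 71.4% of those at 1 to 10 TPM (n = 2832), 88.0% at 10 to 100 TPM (n = 6072) and 91.97% at 100 to 1000 TPM (n = 959). For genes with a read but under 1 TPM and for genes at 1000 TPM or more, fewer than 80% had an entry (78.8 and 76.6%), so their shares are not given. Seen the other way, 80.8% of 10103 genes with a CpG-rich promoter were expressed against 30.7% of 4913 with a poorer one. Base composition moved with it: the median GC content was 51.7% in genes without a read and 66.0% at 10 to 100 TPM.

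**Figure D5:**
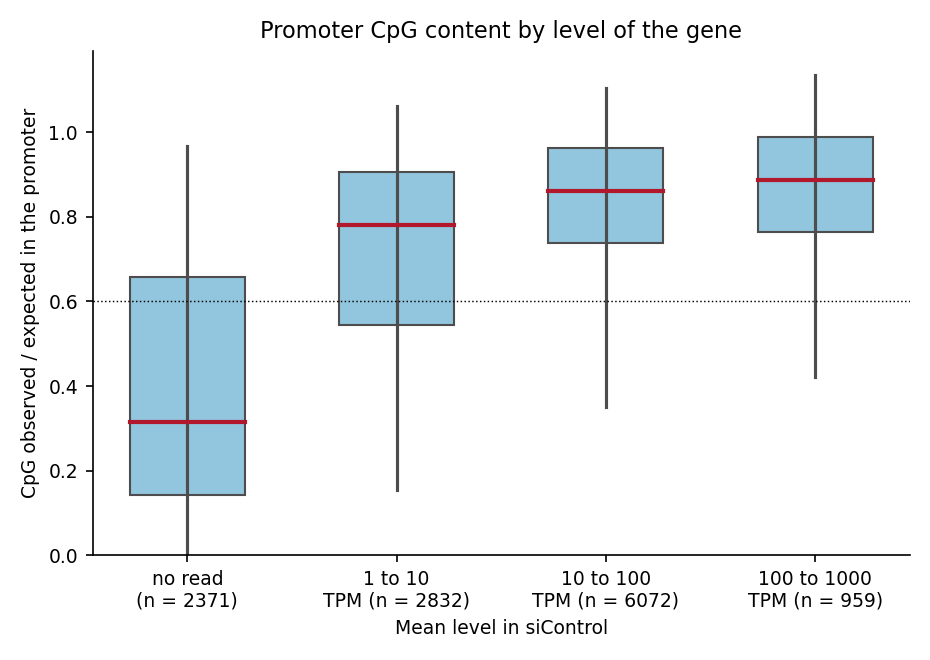
CpG observed over expected ratio of the promoter (y axis) for genes without a read and in 3 classes of mean level (x axis); boxes are quartiles, red lines medians and vertical lines the 5th to 95th percentile of genes, and the dotted line is the limit of 0.6. The median is 0.315 in genes without a read and 0.780, 0.860 and 0.887 in the 3 classes of level.

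The letters TATAAA, searched on both strands anywhere in the window, were in 9.46% of all promoters, in 21.2% of those of genes without a read, in 4.28% at 10 to 100 TPM and in 8.03% at 100 to 1000 TPM. They were in 79.5% of 78 keratin-associated protein promoters and 34.1% of 302 olfactory receptor promoters, whose median GC content is 42.7 and 37.7%. Of the olfactory receptor promoters 1.99% were CpG-rich, and of 420 ZNF promoters 80.2%. The 5 promoters below were chosen after the levels were known: EEF1A1 and TSPAN8 show a CpG-rich promoter of a high gene and a CpG-poor one of an unread gene, and WIF1, EREG and TNNT1 show the opposite pairings. They are RefSeq sequences of GRCh38.p14, 5′ to 3′ on the strand of the gene, with each CpG in capitals.
EEF1A1 (chr6:73520983-73521282, minus strand): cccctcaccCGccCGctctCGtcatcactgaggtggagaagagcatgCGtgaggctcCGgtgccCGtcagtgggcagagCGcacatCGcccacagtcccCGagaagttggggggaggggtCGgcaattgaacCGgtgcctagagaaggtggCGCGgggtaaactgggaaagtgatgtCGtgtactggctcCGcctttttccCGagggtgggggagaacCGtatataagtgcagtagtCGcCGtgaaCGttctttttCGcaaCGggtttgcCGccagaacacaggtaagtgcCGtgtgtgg
WIF1 (chr12:65121256-65121555, minus strand): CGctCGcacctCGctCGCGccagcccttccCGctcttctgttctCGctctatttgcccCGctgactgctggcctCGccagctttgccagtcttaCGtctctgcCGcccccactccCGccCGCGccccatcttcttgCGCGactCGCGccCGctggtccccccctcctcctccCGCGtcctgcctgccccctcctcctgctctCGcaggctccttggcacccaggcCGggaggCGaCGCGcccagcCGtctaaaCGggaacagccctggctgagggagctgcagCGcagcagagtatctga
EREG (chr4:74364895-74365194, plus strand): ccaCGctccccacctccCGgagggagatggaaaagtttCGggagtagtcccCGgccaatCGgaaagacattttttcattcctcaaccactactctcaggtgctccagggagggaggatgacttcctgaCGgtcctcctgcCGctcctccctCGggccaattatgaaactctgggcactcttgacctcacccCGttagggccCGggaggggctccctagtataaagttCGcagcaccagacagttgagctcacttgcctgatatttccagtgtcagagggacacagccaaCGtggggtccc
TNNT1 (chr19:55149157-55149456, minus strand): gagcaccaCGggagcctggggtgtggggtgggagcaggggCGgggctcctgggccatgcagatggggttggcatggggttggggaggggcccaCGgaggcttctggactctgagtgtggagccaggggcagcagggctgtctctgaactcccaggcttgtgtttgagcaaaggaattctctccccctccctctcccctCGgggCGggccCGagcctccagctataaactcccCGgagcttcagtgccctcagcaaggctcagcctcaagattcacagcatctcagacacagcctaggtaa
TSPAN8 (chr12:71157950-71158249, minus strand): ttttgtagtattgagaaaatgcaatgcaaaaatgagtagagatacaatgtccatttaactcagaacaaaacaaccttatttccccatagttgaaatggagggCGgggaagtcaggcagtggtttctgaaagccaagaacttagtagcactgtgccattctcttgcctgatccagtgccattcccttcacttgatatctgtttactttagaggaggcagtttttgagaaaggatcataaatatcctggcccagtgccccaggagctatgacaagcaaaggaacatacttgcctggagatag
EEF1A1 and WIF1 both have CpG-rich promoters, with 24 and 29 CpG and ratios of 0.891 and 0.876, but EEF1A1 is at 6850.2 TPM and WIF1 has no read. EREG, at 2419.8 TPM, has 12 CpG and a ratio of 0.486. TNNT1, at 175 TPM, has 7 CpG and a ratio of 0.230, and both of these promoters hold the TATA letters searched above. TSPAN8, a tetraspanin of the digestive tract without a read here, has 1 CpG. A match of letters is a description of the window and does not show a factor's binding.

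The 3 libraries resembled each other closely. Across expressed protein-coding genes, which are not independent replicates, Pearson's r of log2 TPM was 0.993 to 0.994 between pairs of libraries, and the median absolute difference was 0.0984 to 0.121 on the log2 scale. Spread fell with level: the median coefficient of variation over libraries was 12.8% at 1 to 10 TPM, 5.71% at 10 to 100 TPM, 3.36% at 100 to 1000 TPM and 2.55% above, against 7.16, 2.64, 1.19 and 0.469% from counting alone. Among 11198 protein-coding genes with a mean of at least 100 deposited units (size-factor-scaled reads), the highest library exceeded the lowest 1.12-fold in the median, and 15 genes (0.134%) differed more than 2-fold. The largest ratios belonged to SLC37A2 (46, 97 and 162 reads), a sugar-phosphate carrier, at 3.29-fold, ACSM3 (46, 117 and 147 reads) at 2.99-fold, ZBTB20 at 2.68-fold, FSCN2 at 2.59-fold and TREX1, a DNA exonuclease, at 2.49-fold. These 5 did not share an order of libraries: replicate 3 was highest for SLC37A2, ACSM3 and ZBTB20, and replicate 2 for FSCN2 and TREX1. Of the exon bases of TREX1 100%, and of those of ZBTB20 49.65%, are shared with another gene model. Reads on such bases can be lost in counting. PDK3, F10, ULK4, NPAS1 and ST3GAL3 followed with ratios of 2.07 to 2.18. The labels give no batch, so a split of the libraries by batch could not be made.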

How the data were processed

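RNA sequencing of polyadenylated RNA from HCT116 cells was used, from the 3 siControl libraries only. The tools named in the submitters' processing notes are Trim Galore 0.4.1 for trimming, STAR 2.7.0 for alignment, HTSeq 0.12.4 for counting and DESeq2 for normalization. Builds hg19 and hg38 are both named, and the coordinates of the deposited table are those of hg19. Whether reads were counted by strand is not given in the sources used here. The deposited signal is the count of each gene divided by a size factor per library, made by the authors. Each deposited value divided by its library's step gave a whole number of reads within 0.001 reads for 100% of values. The NC columns are treated here as the siControl libraries: averaged, they match the control column of the authors' deposited comparison tables (largest difference 4.96883e-05). Symbols that had been turned into dates were restored for 31 genes.

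Reads were divided by the union of exons in GENCODE 29, matched by gene ID for 52526 and by symbol for 202 of 63677 genes, and scaled to TPM over all genes with a length. The 10949 genes without a length have no TPM. Exon lengths come from another build than the table. Totals of 29161285 to 34143599 reads set the precision. No groups were compared, so no test across genes was run. The steps were tested on simulated data, with Python 3.11.15, numpy 2.4.6, pandas 2.3.3 and matplotlib 3.10.9. Promoters are those of RefSeq, GRCh38.p14, matched by symbol.

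The libraries, gene lists and families were chosen with earlier results of these data known. Genes were named by a rule. Taken were EPCAM, KRT8, KRT18 and CDH1, the 25 protein-coding and 5 long noncoding genes with the highest TPM, and RNF40 and TGM2. Of a family, the first and second member were taken, with up to 4 more at 10 TPM or above or without a read. Of a list, up to 6 leading members were taken with those without a read. The 10 genes that varied most between libraries were taken too. Other genes named with a low level, as well as the globin region, IFNE, KRTAP2-3, CYP4F11, CYP2R1, the ribosomal protein paralogs and the printed sequences, were chosen after their values were seen. Some genes of the lists are not reported here.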

Additional observations from a re-analysis of the deposited data

How the results depend on the processing

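No paired analysis was possible because no groups are compared. The number of expressed protein-coding genes and of genes without a read stayed within 1.5 times the values reported under every alternative run for them, from 9834 (at least 5 TPM) to 12472 (at least 0.5 TPM) expressed genes, and up to 4471 genes with at most 3 reads. The share of the 100 highest genes moved from 45.7% to 24.6% with median transcript lengths, 40.7% with longest transcripts, 32.6% with protein-coding genes only and 21.5% as a share of reads. The share of ribosomal protein genes moved from 5.67% to 6.76%, 7.66%, 7.67% and 5.03% under the same 4 alternatives in that order. Leaving out the nuclear copies of mitochondrial sequence, an alternative chosen after seeing the data, gave 21.8% and 8.37% for these shares. The number of families with a leader above 50% was 88 to 97 under the length alternatives and as reads, and 45 when the leader had to hold over 80%. Leaving out each library in turn gave 11950 to 11967 expressed genes and 3944 to 3967 genes without a read. Both counts ask for a condition in all libraries used, so leaving out a library cannot lower them. The same step gave 45.4 to 46.2% for the 100 highest genes, 5.61 to 5.74% for ribosomal proteins and 88 to 89 families. The share of mitochondrially encoded messenger RNA was 0 throughout. Median transcript lengths changed the leading gene in 37 of 130 families, longest transcripts in 14 and undivided reads in 24. Of 234 named levels, 218 moved by more than 1 SD with median and 184 with longest transcripts, and 0 with the deposited scaling. Without any 1 library 0 moved so far, but this was fixed in advance. Leaving out 1 of 3 libraries cannot shift their mean by more than 1 SD. Causes of these moves beyond the change of length or total were not tested.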
